A study of Mus musculus with 20 samples.

Results

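The comparison described here set 5 libraries of treatment-naive tumor cells against 5 libraries of treatment-naive tumor cells from mice whose macrophages had been depleted, 10 of the 20 tumor cell libraries analysed. Libraries were placed by their sample labels, and the depleted naive group is called Naive-Mac here. All tumors were bone metastases of MycCaP-Bo, a mouse prostate cancer line from the HiMyc model, in which a MYC transgene drives the tumors, and selected for growth in bone. The line is syngeneic to FVB mice, and 400000 cells were injected into the heart of mice 4 to 6 weeks old on day -7. Neither group received enzalutamide, and the paper gives vehicle as the treatment of the naive tumors. The Naive-Mac mice were given clodronate liposomes (L-Clod), which phagocytes take up and which kill them, at 1 mg per mouse intravenously 2 times per week. Hind legs with metastases were ground and digested with enzymes, and CD45- iRFP+ cells were sorted from them. Cells from 3 mice were pooled per library, and the RNA carrying poly(A) was sequenced in paired reads of 150 bp. Resistant tumors were treated with enzalutamide at 30 mg/kg for 18 days, without L-Clod (Resist) or with L-Clod in the last 4 days (Resist-Mac). They served only to show where the naive comparison differs. A single cell line and pools of mice limit what a library stands for, and p-values measure the spread between such pools.

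The labels put the naive libraries in batch 1 and the Naive-Mac libraries in batch 3, so batch and depletion cannot be told apart in any difference below. No batch holds libraries of both groups, and no value within a batch could be given. L-Clod acts on phagocytes and not on the tumor cells that were sequenced, so no targeted gene checks the labels. In bulk RNA, fewer cells of a type and less RNA per cell cannot be told apart either.

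Macrophages of a tumor secrete growth factors, cytokines and matrix that signal to tumor cells. Immediate early genes, such as those for the Fos and Jun subunits of the AP-1 transcription factor, are switched on within minutes of growth factor, serum or stress signals and are degraded fast as RNA. Integrins bind fibronectin and laminin of the matrix and pass signals on through the kinases SRC and FAK, while activin and TGF-β signal through receptor kinases and SMAD proteins.

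Expression was given as FPKM, a fragment number scaled to transcript length and to the fragments of the library. No counts were given. The spacing of low FPKM values was that of 5100000 to 10900000 fragments in naive and 2220000 to 5100000 in Naive-Mac libraries, a rough estimate of depth that can be off by a whole multiple, and the part of depth in the results was not tested. Between 12963 and 13237 genes had a value above 0 in a naive library against 12044 to 12669 in a Naive-Mac library. The naive libraries correlated with each other at 0.989 to 0.993 over genes and the Naive-Mac libraries at 0.966 to 0.99. Of 15529 genes in both tables, 9785 had a mapped transcript length and a mean of at least 1 FPKM and were tested. A close processed pseudogene, which makes assignment uncertain, was found for 1257 of them. Among these are Itga6, Mki67, Idi1, Ifitm3, Gapdh, Cycs, Hspb1 and Mif, named below.

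The change of a gene between the groups followed the length of its transcript. After scaling the libraries by median ratios, the median log2 change, Naive-Mac over naive, was 1.48 in the tenth of genes with the shortest transcripts and -1.58 in the tenth with the longest. Spearman's rho between length and change was -0.75 over 9785 genes, as a description of these libraries. Subtracting a smooth curve of length in each library left medians of 0.10 and -0.11 and a rho of -0.022. A rho of -0.24 with GC content and a rho of 0.21 with the mean level of the gene remained. The length used was the median over RefSeq transcripts. For 2865 of the 9785 genes it differed by over 1.5 times from the median over coding transcripts, so their corrected changes are less certain. All log2 changes below are length-corrected, on the log2(FPKM + 1) scale, unless stated otherwise, and their errors are standard errors.

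**Figure D1:**
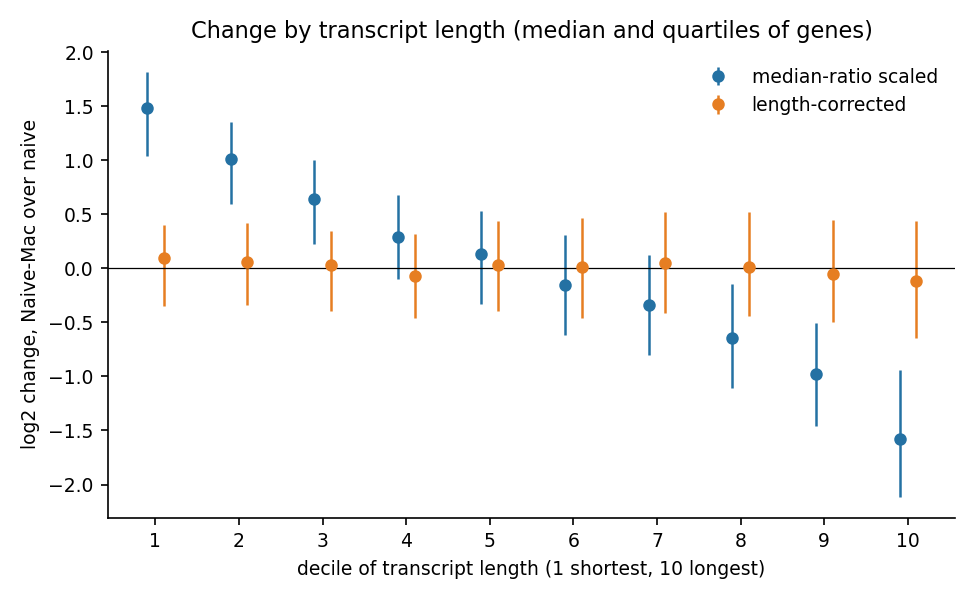
Median log2 change, Naive-Mac over naive, of genes in 10 groups of transcript length, with quartiles as bars, before and after the length correction. Before the correction the medians run from 1.48 for the shortest to -1.58 for the longest transcripts, and after it from 0.10 to -0.11.

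With a Benjamini-Hochberg adjusted p under 0.05 in limma and a fold over 1.5, 3514 of the 9785 genes passed (35.9%), of which 1671 (17.1%) had a higher and 1843 (18.8%) a lower level in Naive-Mac tumors. The median change of all genes was 0.014. With the median length over coding transcripts 4604 genes were called, 2387 higher and 2217 lower. Without the length correction 5904 were called (60.3%), and on FPKM as deposited, with neither scaling nor correction, 2157 were called higher and 3678 lower. The 2 groups did not overlap for 5189 genes after the correction (53%), and this share was not counted on FPKM as deposited. These shares are the background for every count of list members below, but the calls still varied with transcript length after the correction. Of the 979 genes with the shortest transcripts (132 to 1096 bases), 138 were called lower and 131 higher. Of the 980 genes with the longest (5871 bases or more), 275 were called lower and 197 higher.

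After the length correction, the immediate early and AP-1 genes had the largest median shift of the lists examined, marker lists included. This rank depended on the correction. Without it the list was at -0.97, and larger shifts included ribosomal proteins (1.94), the respiratory chain (1.59), and SRC and focal adhesion genes (-1.19). On FPKM as deposited, with neither scaling nor correction, it was at -1.26, against 1.65, 1.30 and -1.45 for those lists. Of the 28 immediate early and AP-1 members tested, 22 were lower in Naive-Mac tumors (78.6%) and 0 were higher. A change below 0 was found in 27, and the corrected median was -1.06. The median of the list in each library was 0.41 to 0.60 above the gene means in naive tumors and -0.57 to -0.38 in Naive-Mac tumors. Naive and Naive-Mac libraries were fully apart in 22 of the 28 members after the correction, against 53% of all genes tested. On FPKM as given they were apart in 19, for which no share over all genes was counted, so nothing is read from it. The other 2 members of the list, Egr3 and Dusp5, had means under 1 FPKM in both groups and were not tested.

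Promoter stretches of 3 members of this list are shown because they hold the DNA elements for which immediate early promoters are known, the serum response element (CArG box) and the cyclic AMP response element (TGACGTCA). They were read 5′ to 3′ on the gene's strand from RefSeq promoters of GRCm38.p6, with the element in capitals. Zfp36 lies on the minus strand at chr7:28379212-28379291, Btg2 on the minus strand at chr1:134079247-134079326 and Dusp1 on the minus strand at chr17:26508541-26508620.
Zfp36: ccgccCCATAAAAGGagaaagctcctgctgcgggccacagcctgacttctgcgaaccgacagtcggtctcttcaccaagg
Btg2: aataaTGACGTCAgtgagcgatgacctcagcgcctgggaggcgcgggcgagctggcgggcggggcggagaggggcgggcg
Dusp1: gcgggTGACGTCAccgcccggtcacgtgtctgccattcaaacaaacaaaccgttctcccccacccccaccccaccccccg
Zfp36 and Btg2 were lower in Naive-Mac tumors, while Dusp1, with the same element as Btg2, did not pass the test. RefSeq promoters, from 250 bases before to 50 after the start, matched 24 of the 30 listed genes. Among the 17 of these that were lower, the CArG box was in 1 promoter (5.88%, against 1.28% of the promoters of all genes tested) and TGACGTCA in 1 (5.88%, against 3.61%). The AP-1 motif TGANTCA was in 0 of the 17 (4.63% of all genes tested) and GGGNNNNNCC, a loose NF-κB motif, in 15 (88.2%, against 68.4%). Both strands were searched, the motifs can overlap each other, and a match is a description of these letters and not a site.

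Among the Fos genes, Fosl1, which encodes an AP-1 subunit, was at 58, 56.6, 129, 51.2 and 90.6 FPKM in naive replicates 1 to 5 and at 13.9, 8.87, 6.84, 13.7 and 6.49 FPKM in Naive-Mac replicates 1 to 5. The highest Naive-Mac library was below the lowest naive library, and the change was -3.06 ± 0.279 (SE, adjusted p = 1.24e-06). Fosb was at 242, 333, 285, 434 and 239 FPKM in naive and 44.3, 53.1, 51.8, 61.1 and 43.5 FPKM in Naive-Mac libraries (-1.73 ± 0.156, adjusted p = 1.17e-06). Fos itself was at 312, 567, 189.9, 993 and 211 FPKM in naive and 80.4, 243, 168, 126 and 120.0 FPKM in Naive-Mac libraries. Its change was -1.50 ± 0.416 (adjusted p = 0.00672), but the groups overlapped, with Naive-Mac replicate 2 above naive replicates 3 and 5. Fosl2 had a change of -0.73. Of the Jun genes, whose products pair with Fos proteins, Jun was at 398 to 603.8 FPKM in naive and 140.3 to 234 FPKM in Naive-Mac libraries (-0.80). Junb was lower by the correction (-0.78), with FPKM of 565 to 738 and 380.4 to 588 that overlapped. Jund, the member with the highest naive FPKM, was at 810.0 to 1058 FPKM in naive and 748 to 1228 FPKM in Naive-Mac libraries, overlapped, and its change of -0.32 was under the fold required.

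Egr1, a zinc finger factor induced by serum, was at 244, 277, 165, 307 and 205 FPKM in naive and 29.3, 64.3, 48.8, 52 and 48.5 FPKM in Naive-Mac libraries. The groups lay well apart, and the change was -1.81 ± 0.172 (adjusted p = 1.74e-06). Atf3, a stress-induced factor, was at 588, 518, 811, 559 and 543 FPKM in naive and 162, 54.3, 108, 170.1 and 107 FPKM in Naive-Mac libraries (-2.56 ± 0.27, adjusted p = 4.13e-06). Klf4, a Krüppel-like factor, was at 82.9, 104, 115, 139 and 77.4 FPKM in naive and 8.98, 10.0, 7.94, 12.1 and 10.8 FPKM in Naive-Mac libraries (-2.77 ± 0.167, adjusted p = 4.96e-08). In each of these genes all 5 Naive-Mac libraries were below all 5 naive libraries. Nr4a1, an orphan nuclear receptor, fell by 1.68, and Klf2 fell by 1.53 on the log2 scale, with FPKM of 127 to 223 and 145 to 234 in naive and 29.9 to 69.2 and 65 to 88.4 in Naive-Mac libraries. Egr2 (-1.16), Ier2 (-1.06), Ier3 (-1.39) and Maff (-0.79) were also called lower. Klf6 (-0.26) and Ier5 (-0.42) were not.

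**Figure D2:**
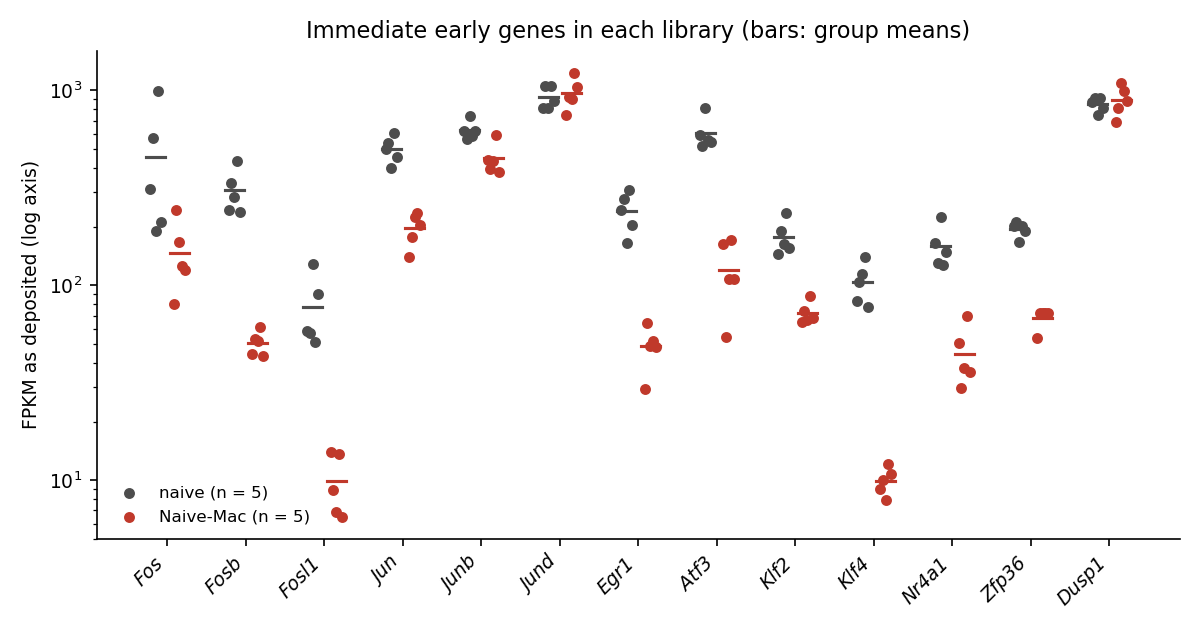
FPKM of 13 immediate early genes in each naive and Naive-Mac library (points, log axis) with group means as bars. The groups lie apart for Fosb, Fosl1, Egr1, Atf3, Klf4 and Zfp36, and overlap for Fos, Junb, Jund and Dusp1. The values are those before the length correction.

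The genes of the list that damp such signals were more divided. Zfp36, which binds and destabilizes cytokine and immediate early mRNA, was at 201, 211, 168, 202 and 189.8 FPKM in naive and 53.5, 72, 71.9, 72.4 and 71.9 FPKM in Naive-Mac libraries. Its groups did not overlap, and its change was -1.15 ± 0.074 (adjusted p = 7.78e-08). Dusp4 (-1.04) and Dusp2 (-1.07), phosphatases of MAP kinases, Btg2 (-0.72), Gadd45a (-0.89) and Gadd45b (-1.22) were lower too. For Gadd45a the scaled value without the length correction was 0.14. Dusp1, a MAP kinase phosphatase with 748 to 918 FPKM in naive and 691 to 1092 FPKM in Naive-Mac libraries, had a change of -0.10 and an adjusted p of 0.339. Dusp6 (-0.0013) and Btg1 (0.50) were not called.

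Myc stood lowest in the list, at 142, 176, 169, 151 and 170.3 FPKM in naive and 9.48, 7.63, 5.82, 10.1 and 6.49 FPKM in Naive-Mac libraries (-4.32 ± 0.147, adjusted p = 3.92e-10). The tumor cells carry a MYC transgene, and how its fragments were assigned is not given in the sources used here. The identifier 4609, outside the mouse gene table and listed for Naive-Mac and not for naive libraries, stood at 566, 1094, 1269.6, 1160.4 and 1091 FPKM in Naive-Mac replicates 1 to 5, so the Myc values of the 2 tables may not cover the same transcripts. Without Myc, 21 of 27 members were lower and the median was -1.06.

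Neutrophil RNA differed widely between the sorted libraries, and its values stand beside this list. Summed FPKM of 15 neutrophil genes was 1374, 518, 233, 215.5 and 629.6 in naive replicates 1 to 5 and 5156, 80.5, 6630, 4181 and 835 in Naive-Mac replicates 1 to 5. The groups overlapped, and Naive-Mac replicate 2 had the lowest sum of the 10 libraries. With Naive-Mac replicates 2 and 5 only, an alternative chosen after seeing the data, 21 members were lower and the list median was -1.11. The part of neutrophil RNA in the list's change was not tested.

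Among the genes that the study tied to tumor cell and macrophage signalling, Fn1 and Src were lower in Naive-Mac tumors. Lamb2 was at the border of the test, Itga5 did not pass, and the direction of Inhba depended on the transcript length used. Fn1 encodes fibronectin, a matrix ligand of integrins, and was at 839, 969, 789, 1155 and 1092 FPKM in naive and 57.4, 226, 94, 118 and 116 FPKM in Naive-Mac libraries. Every Naive-Mac library was below every naive library, and the means were 968 ± 157 and 122 ± 62.9 FPKM (SD, n = 5 each). Its transcript is among the longest, and the length correction took its change from -2.81 to -1.35 ± 0.237. The exact two-sided permutation test gave p = 0.00794, the smallest that 5 libraries against 5 allow, and 0.0132 after adjustment over the 5 genes, while limma gave an adjusted p of 0.000283. With a pseudocount of 0.1 the exact test no longer passed.

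Src, the kinase below integrins, was at 6.1, 8.62, 8.73, 6.71 and 7.01 FPKM in naive and 1.68, 2.21, 1.57, 2.01 and 1.54 FPKM in Naive-Mac libraries. The groups did not overlap, the change was -0.79 ± 0.125, and the exact permutation p was 0.00794 (0.0132 adjusted). Inhba encodes the subunit of activin A, a ligand of the TGF-β family, and was at 1.18, 0.62, 0.55, 1.03 and 0.64 FPKM in naive and 0.31, 0.26, 0.06, 0.13 and 0.06 FPKM in Naive-Mac libraries. All of these are low levels, and the group means of 0.804 and 0.164 FPKM fell below the filter for limma. Its corrected difference was -1.32, with an exact permutation p of 0.00794 (0.0132 adjusted), against -0.53 without the length correction. The correction put its Naive-Mac mean at -0.15, below the 0 that is the lowest value of log2(FPKM + 1). The direction of the corrected difference depended on which transcript gave the length, with 0.54 from the longest transcript and 0.26 from the median over coding transcripts.

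Lamb2, the laminin β2 chain, was at 35.8, 41.2, 39.4, 46.7 and 42.5 FPKM in naive and 7.64, 16.5, 11, 13.5 and 11.1 FPKM in Naive-Mac libraries. The groups were apart in FPKM, but the corrected change was -0.38 ± 0.125, under the fold required by limma, with an exact permutation p of 0.0397 (0.0496 adjusted). It lost significance in 7 of the 10 fits that left out a library. Itga5, the integrin chain that binds fibronectin, was at 6.97, 7.28, 9.37, 8.96 and 7.91 FPKM in naive and 0.8, 7.66, 3.06, 2.84 and 2.07 FPKM in Naive-Mac libraries. Naive-Mac replicate 2 stood within the naive range and the other 4 below it, and the change of -0.31 ± 0.279 had an exact permutation p of 0.397. Without that library the change was -0.60 and passed (adjusted p = 0.00794, exact permutation test).

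In the wider list of secreted matrix, 8 of 23 genes tested were lower and 0 higher, with a median of -0.38. The median transcript length of the list was 5930 bases. Among all genes tested with transcripts of 5871 bases or more, 275 of 980 were called lower. The part of length in the count for this list was not tested. The members called were basement membrane chains for the most part. Col4a1, a chain of type IV collagen, was at 32.7, 32.5, 39.1, 33.5 and 24.2 FPKM in naive and 1.85, 3.4, 2.17, 3.5 and 2.59 FPKM in Naive-Mac libraries. All Naive-Mac libraries were far below the naive libraries, and the corrected change was -1.67 ± 0.134 (adjusted p = 4.49e-07). Its partner Col4a2 was at 12.7 to 18 FPKM in naive and 1.27 to 2.82 FPKM in Naive-Mac libraries (-1.04). Of the laminin chains, Lamc1 (-1.22), Lama3 (-1.15) and Lama5 (-0.84) fell, with means that went from 40.1, 9.48 and 35.2 to 4.49, 0.442 and 4.02 FPKM. Agrn, which encodes agrin (-0.72), and Col12a1 (-0.83) completed the 8. The median of the list in Naive-Mac replicate 2 was 0.22 above the gene means, within the naive range of 0.053 to 0.41, while the other 4 Naive-Mac libraries were at -0.50 to -0.17. Spp1, osteopontin, had the highest naive mean of the list and was at 1269 to 2139 FPKM in naive and 1367 to 3943 FPKM in Naive-Mac libraries, without a call (-0.38, adjusted p = 0.197).

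Among 16 integrins and other matrix receptors tested, 3 were higher and 3 lower, with a median of -0.31. Itga6, the integrin α6 chain that binds laminin, was at 56.3, 54.7, 64.2, 43 and 58.6 FPKM in naive and 4.95, 9.85, 14.7, 11.7 and 10.5 FPKM in Naive-Mac libraries (-1.40 ± 0.138, adjusted p = 2.34e-06). It was the one integrin chain of 8 tested that was called, and a close processed pseudogene makes its assignment uncertain. Dag1, which encodes the laminin receptor dystroglycan, and Cd44, the hyaluronan receptor, were also lower (-0.85 and -0.77). Cd47, the surface signal by which cells resist phagocytosis, was at 39.3, 37.4, 35.3, 36.9 and 37.8 FPKM in naive and 48, 61.2, 61.6, 47.8 and 43.6 FPKM in Naive-Mac libraries. All 5 Naive-Mac libraries were above the naive ones, and the change was 1.75 ± 0.115 (adjusted p = 9.40e-08), or 0.75 without the length correction. The 2 estimates of its transcript length, 5250 and 1271 bases, differ, and with the length over coding transcripts the change was 0.24 and not called. Sdc1, the heparan sulfate proteoglycan syndecan-1, was at 23.8 to 36.4 FPKM in naive and 30.3 to 63.8 FPKM in Naive-Mac libraries and was called higher (1.11), as was Ddr2, a collagen receptor (0.62), although its FPKM was lower in Naive-Mac tumors.

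The list of SRC and focal adhesion genes had 14 of 26 members lower (53.9%) and 2 higher, with a median of -0.60. In each library the list median was 0.20 to 0.36 above the gene means in naive and -0.32 to -0.14 in Naive-Mac tumors. Rock2, a kinase that drives contraction of actomyosin, was at 36, 33, 40.8, 29.3 and 27.6 FPKM in naive and 0.89, 2.29, 2.4, 2.07 and 2.15 FPKM in Naive-Mac libraries (-1.89 ± 0.105, adjusted p = 2.75e-08). Rock1 fell as well (-1.28). Of the adaptors that tie integrins to actin, Tln1, talin, was at 26.3 to 28.7 FPKM in naive and 1.56 to 3.13 FPKM in Naive-Mac libraries (-1.38), Zyx, zyxin, at 25.9 to 40.6 and 7.61 to 13.6 FPKM (-1.26), and Vcl, vinculin, at 25.2 to 29.4 and 2.33 to 7.08 FPKM (-1.06). None of these 3 overlapped between the groups. Actn4, the member with the highest naive mean, fell from 157 ± 6.56 to 48 ± 7.47 FPKM (SD, n = 5 each, -0.85). Yes1, a kinase of the SRC family (-0.76), Crkl (-1.08), Pxn, paxillin (-0.61), Bcar1 (-0.59), Tns1 (-0.69) and Actn1 (-0.75) were also lower. The members that rose were Ilk, integrin-linked kinase, with 56.7 to 64.2 FPKM in naive and 96.2 to 135 FPKM in Naive-Mac libraries (0.62), and the adaptor Crk (0.78), whose direction reversed with a length from the coding transcripts. Ptk2, the gene of FAK, was not called (-0.53, adjusted p = 0.000267).

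**Figure D3:**
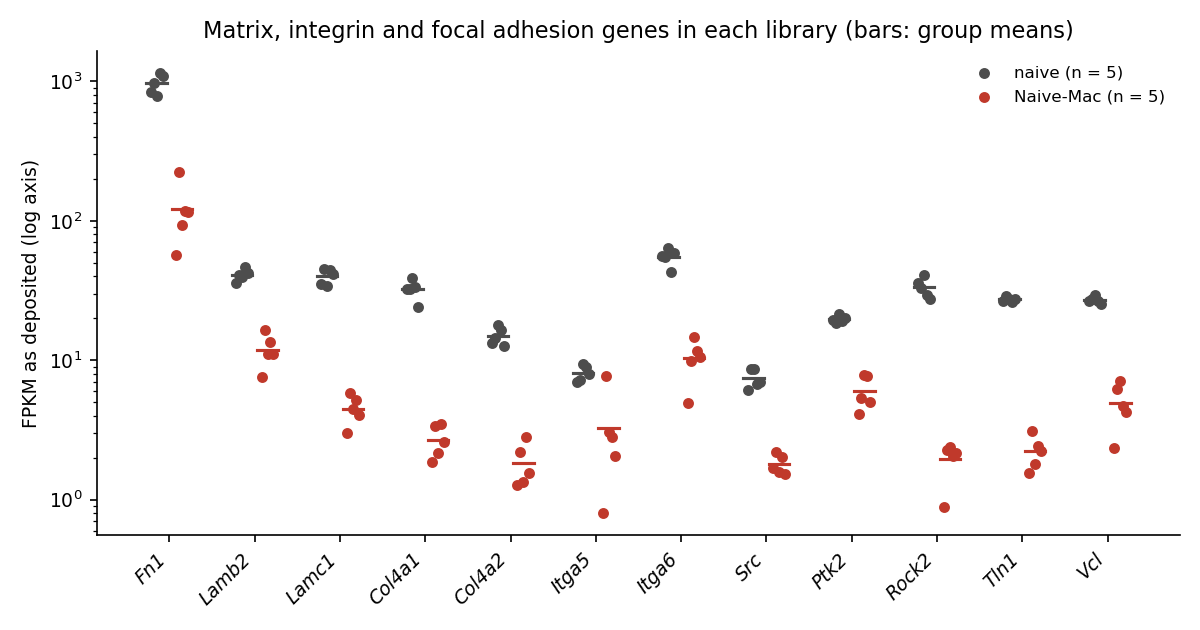
FPKM of 12 matrix, integrin and focal adhesion genes in each naive and Naive-Mac library (points, log axis) with group means as bars. All 5 Naive-Mac libraries lie below the naive libraries for each gene except Itga5, in which Naive-Mac replicate 2 is at 7.66 FPKM. The values are those before the length correction, after which Lamb2, Itga5 and Ptk2 were not called in limma.

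Of 31 genes of activin and TGF-β signalling tested, 14 were lower (45.2%) and 1 was higher, with a median of -0.54. Among the ligands, Tgfb2 fell from 81.1 ± 5.38 to 22.5 ± 5.53 FPKM (-0.59 ± 0.0865). Gdf15, a stress-induced member of the family, was called lower (-1.30), although its FPKM of 13.32 to 37.9 in naive and 9.38 to 20.7 in Naive-Mac libraries overlapped. The receptors Acvr1 (-0.94), Acvr1b (-0.67) and Tgfbr3 (-0.71) were lower, as was Smad3, the transducer of activin and TGF-β signals (-0.80). Bmpr1a was called higher (1.00) but stood at 8.48 and 6.41 FPKM and had a change of -0.16 without the length correction. The inhibitors were lower in 4 of 7 cases, namely Smad7 (-0.78), Ski (-0.92), Smurf1 (-0.84) and Fstl3, which binds activin (-1.02). Among the target genes, Ccn1, a secreted matricellular protein, was at 1002, 1005, 1164, 861 and 1643 FPKM in naive and 539, 291, 539, 628 and 329 FPKM in Naive-Mac libraries. Its groups did not overlap, and the change was -1.45 ± 0.223 (adjusted p = 9.97e-05). Ccn2 (-0.87), Tgif1 (-1.24) and Id2 (-0.72) were lower too, and Id2 had a change of 0.26 without the length correction.

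Of 17 cytokine and NF-κB genes tested, 10 were lower (58.8%) and 0 higher, with a median of -0.71, but the median was -0.093 without the length correction. The NF-κB genes carried most of this, with 6 of 7 lower. Rela, a subunit of the factor, was at 49.8, 57.8, 54.9, 49.1 and 55.2 FPKM in naive and 20, 23.5, 27.6, 28.6 and 25.4 FPKM in Naive-Mac libraries (-0.77 ± 0.068, adjusted p = 9.47e-07). Its groups did not overlap. Nfkbiz, an inducible regulator of NF-κB, was at 45.4 to 64.1 FPKM in naive and 8.67 to 23.1 FPKM in Naive-Mac libraries (-1.05), and Nfkb1 (-0.86), Nfkb2 (-0.77), Relb (-0.64) and Tnfaip3 (-0.89) were lower. Tnf was low, at 1.51 to 2.16 FPKM in naive and 0.57 to 1.01 FPKM in Naive-Mac libraries, and was called lower (-1.29). Cxcl1, a chemokine that draws neutrophils, was called lower (-1.33 ± 0.406) although its FPKM of 46.8 to 165 and 28.9 to 151 overlapped, and Il34 (-0.71) and Vegfb (-0.70) overlapped in the same way. Without the length correction Cxcl1 had -0.076 and was not called. Of 8 leukocyte marker genes tested 2 were called higher, and the part of leukocyte RNA in these cytokine values was not tested. Mif, the member with the highest naive mean, was not called in limma at the fold required (-0.54) and had 1.08 without the length correction.

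Of 32 interferon response genes tested, 11 were lower (34.4%) and 0 higher, with a median of -0.36, or -0.037 after quantile normalization. Ifitm3, a membrane protein that blocks virus entry, had the largest fall (-1.96 ± 0.238), although FPKM of 36.5 to 74.8 in naive and 20.7 to 47 in Naive-Mac libraries overlapped. Without the length correction it had -0.46 and was not called. Igtp, an interferon-induced GTPase, was at 9.16, 8.29, 11.1, 6.98 and 6.59 FPKM in naive and 2.15, 3.23, 4.47, 2.87 and 2.7 FPKM in Naive-Mac libraries (-1.40), and its groups were apart. Oasl2 (-1.14), Irgm1 (-0.93), Jak2 (-0.85) and the factor Irf1 (-0.83) were lower as well. Bst2 was called lower (-0.76) but had 0.63 without the length correction.

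The class I antigen presentation list had 3 of 13 members higher and 4 lower, with a median of 0.079 (-0.39 after quantile normalization). H2-K1, a class I heavy chain, was at 215, 225, 216, 232 and 198 FPKM in naive and 135, 148, 159.7, 157 and 152 FPKM in Naive-Mac libraries (-0.97 ± 0.0619, adjusted p = 7.29e-08). H2-T23 (-0.93), Tapbp (-0.79) and B2m (-1.17) were lower too, though B2m was at 898 to 1104 and 872 to 1032 FPKM and had 0.17 without the length correction. The 3 members called higher encode subunits of the immunoproteasome, which cuts peptides for class I. Psmb8 was at 48.2, 51, 42.8, 45 and 42.8 FPKM in naive and 111, 95.2, 96.5, 97.2 and 90.5 FPKM in Naive-Mac libraries (0.66 ± 0.0807, adjusted p = 1.55e-05). Psmb9 (0.59) and Psmb10 (0.72) also rose. For these 3 genes the corrected groups did not overlap.

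In the list of the unfolded protein response and chaperones, 17 of 49 genes were lower (34.7%) and 5 higher, with a median of -0.12, or -0.92 after quantile normalization and -0.56 on FPKM as deposited with neither scaling nor correction. The cytosolic chaperones had 7 of 15 lower and 1 higher, with a median of -0.47. Hspa1a, an inducible HSP70, was at 131, 102, 157, 144 and 174 FPKM in naive and 26.3, 29.8, 24.8, 39.5 and 26.8 FPKM in Naive-Mac libraries (-1.79 ± 0.154, adjusted p = 7.75e-07). All Naive-Mac libraries were below all naive libraries, and its near copy Hspa1b, with which it may share fragments, had -1.63. Bag3 (-1.44), Hsph1 (-1.05), Hspd1 (-0.64) and Hsf1, the heat shock factor (-1.01), fell together with them. Hspa8, the constitutive HSP70, was higher (1.2). Hspb1 was called lower (-1.25) but had 0.044 without the length correction. In the endoplasmic reticulum, Hsp90b1 fell from 461 to 143 FPKM (-1.31) and Manf rose from 122 to 272 FPKM (1.18). Of the integrated stress response, Atf4, its central factor (-1.48), and Ddit3 (-1.72) fell. Psat1 and Phgdh, enzymes of serine synthesis, rose (1.38 and 0.70), as did Slc7a11, the cystine transporter (1.45), which had -0.18 without the length correction.

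Metal handling and redox genes had 5 of 29 members higher and 5 lower, with a median of 0.051 (-0.49 after quantile normalization). The metallothioneins, which bind zinc and copper and have short transcripts, were called lower (Mt1 -0.88, Mt2 -1.28), but were above 0 without the length correction (0.73 and 0.37). Nfe2l2, the master factor of the oxidative stress response, fell from 22.7 to 7.55 FPKM (-1.69 ± 0.114), and so did Hmox1, heme oxygenase (-1.03). Gpx4, which detoxifies lipid peroxides, and Prdx5, a peroxiredoxin, were higher (1.01 and 0.97).

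Epithelial identity genes had 11 of 26 members lower (42.3%) and 3 higher, with a median of -0.45. Ppl, periplakin of desmosomes, was at 31, 28.1, 38.8, 25 and 24.3 FPKM in naive and 1.55, 2.67, 1.1, 1.51 and 1.72 FPKM in Naive-Mac libraries (-2.05 ± 0.175, adjusted p = 7.42e-07). The groups were far apart. Grhl2, a transcription factor of epithelial junctions, was at 18.9 to 24.6 FPKM in naive and 1.34 to 3.5 FPKM in Naive-Mac libraries (-1.50), and Tjp1, a scaffold protein of tight junctions, was lower (-1.27). Jup (-0.94), Evpl (-0.89), Ovol1 (-0.98), Elf3 (-0.94) and Ehf (-0.84) fell too. The keratins did not move together. Krt7 was at 745 to 937 FPKM in naive and 859.9 to 1291 FPKM in Naive-Mac libraries and was called higher (1.24, but -0.28 after quantile normalization), while Krt8 (-0.85) and Krt6a (-0.88) were called lower with groups that overlapped in FPKM. Of 8 mesenchymal genes tested, 2 were lower and 1 higher, with a median of 0.36. Plaur, the urokinase receptor, was at 136 to 292 FPKM in naive and 70.3 to 97.5 FPKM in Naive-Mac libraries (-1.69), and S100a4 was at the border of the fold (0.59). Of 12 androgen receptor genes tested, 2 were higher and 2 lower, with a median of 0.041, or -0.39 on FPKM as deposited with neither scaling nor correction. The androgen target Fkbp5 fell from 347 ± 21.8 to 126 ± 32.7 FPKM (-0.77) and Zbtb16 from 16.5 to 1.52 FPKM (-1.66), while Mboat2 was higher (1.28).

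Cell cycle genes tended the other way, with 15 of 50 higher (30%) and 4 lower and a median of 0.36, or -0.051 on FPKM as deposited with neither scaling nor correction. Cdk1, the kinase of mitotic entry, was at 8.12, 6.42, 6.04, 6.17 and 7.21 FPKM in naive and 22.6, 20.7, 22.1, 20.1 and 29.8 FPKM in Naive-Mac libraries (2.63 ± 0.158, adjusted p = 4.92e-08). The groups did not overlap, but the 2 estimates of its transcript length were 4375 and 1253 bases. Gins2, of the replication helicase (2.22), Ccnb1, cyclin B1 (1.26), Aurka (1.07), Birc5 (0.98) and Cdk4 (0.98) were higher. Mki67, the gene of the Ki-67 antigen with a transcript of 10060 bases, went from 12.4 to 19.5 FPKM in naive to 0.23 to 0.95 FPKM in Naive-Mac libraries (-1.50 ± 0.158). Cdkn1a, the cell cycle inhibitor p21, was lower (-1.05), and Cdkn1b, the inhibitor p27, was higher (0.77).

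The lists of growth and metabolism had medians above 0 whose sign depended on the scaling. Of 73 ribosomal protein genes, 34 were higher and 0 lower, with a median of 0.55 that became -0.68 after quantile normalization, and 67 of them have close processed pseudogenes. Respiratory chain genes had 11 of 41 higher and 1 lower (median 0.39, and -0.30 after quantile normalization). Ndufb8 (1.30), Ndufa8 (1.01) and Cox4i1 (0.85) were among those higher. Sterol synthesis had 7 of 19 members higher and 0 lower. Idi1, an enzyme of isoprenoid synthesis, was at 24.5 and 44.6 FPKM (1.29), and Cyp51 (1.05) and Fdft1 (1.17) followed. The whole lipid list had a median of 0.24, or -0.18 after quantile normalization. Glycolysis and hypoxia genes had 7 of 31 higher and 5 lower (median 0.19, and -0.81 after quantile normalization). Vegfa, the angiogenic growth factor, was at 38.8 to 55.6 FPKM in naive and 7.4 to 17.4 FPKM in Naive-Mac libraries (-2.09 ± 0.156, adjusted p = 2.48e-07). All Naive-Mac libraries were below the naive libraries. Epas1, which encodes the hypoxia factor HIF-2α, fell from 39 to 3.58 FPKM (-1.82), and the hexokinases Hk1 (-0.89) and Hk2 (-0.73) were lower. Ribosome biogenesis (3 higher and 3 lower of 20, median 0.025, or -0.24 after quantile normalization), cell death (6 and 3 of 19, median 0.27, or -0.054 on FPKM as deposited with neither scaling nor correction), and lysosome and autophagy genes (7 and 7 of 36, median 0.054, or -0.18 after quantile normalization) showed calls in both directions. Among the last, Ctsb, cathepsin B, was higher (1.39), and Gaa (-1.21) and Glb1 (-1.14), lysosomal hydrolases, were lower.

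The largest single changes belonged to genes that one table lists at a far lower level than the other. Bex6 and Nckap5, which averaged 2441 and 2551 FPKM in naive, are listed at 0 in each Naive-Mac library. Ogfod2 was at 681, 694, 657, 702 and 761 FPKM in naive and 22.1, 20.8, 20.2, 20.2 and 20.7 FPKM in Naive-Mac libraries (-5.50 ± 0.0635). The histone gene H2ac23 was at 1.79, 2.85, 0.87, 4.33 and 3.79 FPKM in naive and 769, 606, 618, 873 and 639 FPKM in Naive-Mac libraries (6.21 ± 0.242), although histone mRNA mostly lacks the poly(A) tail used for enrichment. Rpl3, a ribosomal protein gene with pseudogenes, averaged 1.5 and 2973 FPKM, Gapdh 705 and 7484 FPKM, and Cycs 11.8 and 221 FPKM. These 3 and Ogfod2 and H2ac23 were called in the same direction in Resist-Mac over Resist, which has the same naive and Resist table on one side. The other large falls were in Gas5 (-5.00), Fmo1 (-4.65), Zfp236 (-4.05), Galnt11 (-4.00), H4c17 (-3.22), Ahnak (-3.11) and Gatad2b (-2.90), beside Myc and Fosl1. With the length of its longest transcript, 18100 bases in place of 1188, Ahnak had -0.11 and was not called. The other large rises were in Rps15a-ps6 (3.50), a pseudogene by its symbol, Mrpl17 (3.07), Dnajc15 (2.97), Gm4262 (2.81), Bloc1s5 (2.76), Chic2 (2.73), Tmem167 (2.63) and Rps29 (2.63), beside Cdk1. Without the length correction Mrpl17 (1.68), Dnajc15 (1.77), Bloc1s5 (1.68), Chic2 (1.045), Tmem167 (1.06) and Cdk1 (1.89) rose less. Rps15a-ps6 (5.255), Gm4262 (3.25) and Rps29 (4.39) rose more. The 2 estimates of transcript length were 7300 and 743.5 bases for Mrpl17 and 5634 and 1020 bases for Bloc1s5. Of these 20 genes, 15 were called in the same direction in Resist-Mac over Resist, Myc and Fosl1 were not called there, and Gas5, Rps15a-ps6 and Gm4262 were not tested there.

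The sorted libraries held RNA of other cells in differing amounts. The neutrophil sum had a median of 518 FPKM in naive and 4181 FPKM in Naive-Mac libraries, and the ranges overlapped. S100a8, an abundant neutrophil gene, was at 479.6, 151, 73.1, 63 and 193 FPKM in naive and 1914, 33.9, 2423, 1568 and 307 FPKM in Naive-Mac libraries. Of 14 neutrophil genes tested, 0 were called, and the Naive-Mac libraries spread widely. The sum of 19 macrophage genes was 111, 40.1, 24.3, 22.9 and 55.0 FPKM in naive replicates 1 to 5 and 290.2, 7.92, 582.5, 332 and 67.0 FPKM in Naive-Mac replicates 1 to 5. It rested on Lyz2, which neutrophils also express, at 14.2 to 90.7 FPKM in naive and 3.97 to 513 FPKM in Naive-Mac libraries. The defining macrophage genes Adgre1, which encodes F4/80, and Csf1r did not exceed 0.17 and 0.62 FPKM in naive and 0.4 and 0.73 FPKM in Naive-Mac libraries, so these libraries give no reading of the depletion itself. The sum of 10 leukocyte genes was 27.0 to 84.1 FPKM in naive and 50.5 to 291 FPKM in Naive-Mac libraries, and that of 13 erythroid genes 55.1 to 116 and 215 to 956 FPKM. As deposited, osteoblast and stroma genes summed to 20.4 to 26.0 FPKM in naive and 5.77 to 7.39 FPKM in Naive-Mac libraries, without overlap. These sums are not corrected for length, and the 3 members tested had a median change of 0.15 after the length correction against -0.94 without it. Prostate epithelium genes, the markers of the sorted cell type, were present in every library at 495.5 to 695 and 322 to 446.5 FPKM. The B cell, T and NK cell, endothelial and megakaryocyte sums stayed under 10 FPKM in each of the 10 libraries, and the osteoclast sum was 13.5 to 20.5 FPKM in naive and 2.64 to 25.1 FPKM in Naive-Mac libraries. The part of these cells in the other results was not tested beyond the fits without the libraries named.

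**Figure D4:**
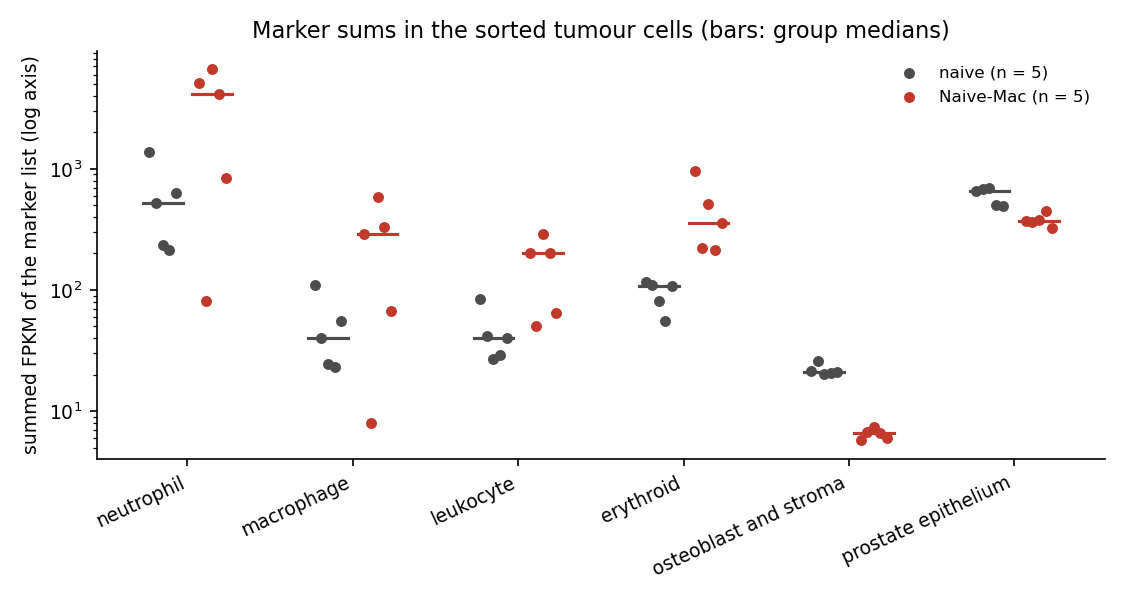
Summed FPKM of marker gene lists in each naive and Naive-Mac library (points, log axis) with group medians as bars. The neutrophil sums overlap, from 215.5 to 1374 in naive and from 80.5 to 6630 in Naive-Mac libraries, and the osteoblast and stroma sums, which are not corrected for length, are apart.

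Depletion in resistant tumors gave a comparison with no library in common, though naive and Resist libraries share batch 1 and a table. In Resist-Mac over Resist, analysed in the same way, 813 of 10031 genes were called (8.1%), 397 higher (3.96%) and 416 lower (4.15%). Over the 9563 genes tested in both, 308 were higher in both, 265 lower in both and 13 opposite. The genes called the same way in both were 16.8% of the 3416 calls in naive and 74.9% of the 765 calls in resistant tumors among these 9563 genes. The difference of the changes, naive less resistant tumors, was tested over 20 libraries and called for 2404 of 9858 genes (24.4%), 1192 above 0 (12.1%) and 1212 below 0 (12.3%).

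The immediate early list had the widest gap between the comparisons among the lists that are not markers of other cells. The neutrophil list had a wider one, with medians of 0.62 in naive and 1.93 in resistant tumors. So had the macrophage list (0.67 and 1.68, 3 genes tested) and the osteoclast list (-0.10 and 0.93, 2 genes tested). The immediate early median was -1.06 in naive and -0.13 in resistant tumors, with 5 of 28 members lower in the latter, and the difference was below 0 for 17 of the 28 members (60.7%) and above 0 for 0. For Fosl1 the changes were -3.06 and -0.44, and the difference was -2.62 ± 0.399 (limma adjusted p = 4.19e-05). For Atf3 they were -2.56 and -0.29, with a difference of -2.25 (limma adjusted p = 0.000103), and for Egr1 -1.81 and -0.47, with a difference of -1.35. Fos, by contrast, was lower in both (-1.50 and -0.94), and its difference was not called (-0.55, adjusted p = 0.421).

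Fn1 was lower in both comparisons (-1.35 and -0.71), and the difference of -0.62 ± 0.283 was not called (limma adjusted p = 0.0854). Src was lower in naive (-0.79) and had -0.18 in resistant tumors, and the difference was called (-0.64 ± 0.202, limma adjusted p = 0.0157). In the matrix and adhesion lists, Col4a1 (-1.51), Rock2 (-1.60), Tln1 (-1.39) and Itga6 (-1.18) had differences below 0, and Cd47 had one above 0 (1.44). Of the SRC and focal adhesion genes 8 of 26 had a difference below 0 and 3 above, and of the secreted matrix genes 5 of 23 and 1. The interferon list had similar medians, -0.36 in naive and -0.30 in resistant tumors, with 3 of 32 differences below 0 and 0 above. H2-K1 was lower in both (-0.97 and -0.78), and the immunoproteasome gene Psmb8 was higher only in the naive comparison, with a difference of 0.82 that was called. Of 19 sterol synthesis genes, 7 were higher in naive and 5 in resistant tumors, with Idi1 at 1.29 and 0.99. The 2 depleted groups come from different batches, so the difference of depletion effects and that of batches 2 and 3 cannot be told apart.

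**Figure D5:**
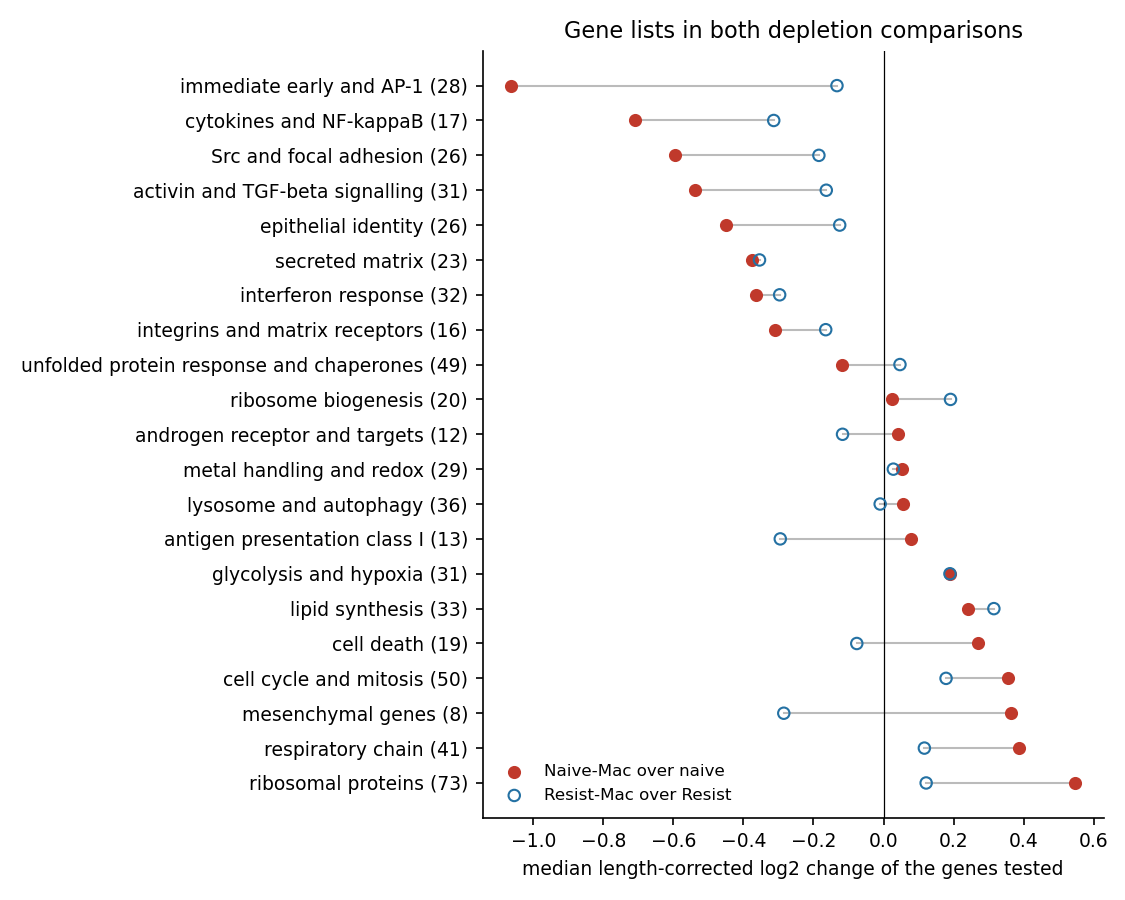
Median length-corrected log2 change of the tested genes of each list, Naive-Mac over naive and Resist-Mac over Resist, with the number of genes tested in brackets. The immediate early and AP-1 list lies at -1.06 in the naive and -0.13 in the resistant comparison, the widest gap in the plot.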

How the data were processed

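RNA of sorted tumor cells was compared in 5 naive and 5 Naive-Mac libraries, grouped by their labels. The authors deposited the naive and Resist libraries as log2(FPKM + 1), which was turned back to FPKM, and the Naive-Mac and Resist-Mac libraries as FPKM. The submitters' processing notes name Bowtie2 and mm9, and the other tools are not given in the sources used here. BGI_novel genes were removed, as the study did. Genes were named with RefSeq, and transcript length was the median over RefSeq transcripts.

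FPKM was scaled by median ratios, put on log2(FPKM + 1), and a spline of log10 length with 4 degrees of freedom was subtracted in each library. The test was limma (3.58.1, under R 4.3.3), with a variance trend and Benjamini-Hochberg adjustment, on genes averaging 1 FPKM or more. Without counts no counting error could be given, and depth was only roughly read from the spacing of low FPKM values. Fn1, Itga5, Lamb2, Inhba and Src also had exact two-sided permutation tests of corrected values. The procedure was tested on simulated data. Alternatives changed the length correction, scaling, pseudocount, filters, fold, test and libraries.

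The members and lists were chosen with earlier results of these data known. Named by rule were the 5 study genes, the 10 largest changes in each direction among called genes of at least 5 FPKM and above 0 in all 10 libraries, without a close processed pseudogene whose groups did not overlap, and, per list, the largest called change in each direction and the highest naive mean. Other members are examples chosen after their values were seen. Replicate numbers were checked for pairing. The same-numbered libraries correlated from -0.20 to 0.17 in their deviations, so the numbers were not taken as pairs. Some members of the lists are counted but not reported here by name.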

Additional observations from a re-analysis of the deposited data

Results flagged for a closer look

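Of 72 named genes whose change could be compared between naive and resistant tumors, 45 had a difference of the changes, naive less resistant, that passed the test of the difference over 20 libraries (limma, adjusted p under 0.05 and a fold over 1.5). Of all genes tested, 2404 of 9858 passed (24.4%). The named genes were chosen in part for the largest changes in naive tumors, which favors such a difference, so nothing is read from their count. The labels put the naive and resistant depleted groups in different batches, and the Myc values of the tables may not cover the same transcripts. On the log2 scale the differences below 0 were Myc (-3.77), Fmo1 (-3.54), Fosl1 (-2.62), Gatad2b (-1.77), Ppl (-1.63), Rock2 (-1.60), Col4a1 (-1.51), Vegfa (-1.51), Nolc1 (-1.44), Plaur (-1.43), Ifitm3 (-1.43), Nfe2l2 (-1.42) and Mki67 (-1.33). Smaller ones were Hspa1a (-1.27), Ahnak (-1.25), Itga6 (-1.18), Ccn1 (-1.07), Ogfod2 (-0.91), Hspb1 (-0.87), Mif (-0.84), Elovl1 (-0.79), Fkbp5 (-0.66), Actn4 (-0.65), Src (-0.64) and Zbtb16 (-0.60). The differences above 0 were Crk (0.67), Sdhc (0.68), Sod2 (0.69), Bmpr1a (0.76), Uqcrq (0.77), Psmb10 (0.82), Mboat2 (0.86), Ctsb (0.89), Cycs (0.94) and Nop58 (1.02), and the larger ones Krt7 (1.05), Slc7a11 (1.16), Cd47 (1.44), Chic2 (1.51), Dnajc15 (1.59), Cdk1 (1.64), Tmem167 (1.65), Mrpl17 (1.71), Bloc1s5 (1.92) and H2ac23 (3.97).

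Single libraries stood apart from the others of their group in 11 of 114 groups of 5 libraries examined, measured as the gap to the nearest library over the range of the group (critical value 0.71). Chance gives about 1 in 20. Among Naive-Mac libraries, replicate 1 was the highest for Chic2 (0.817) and Tmem167 (0.748), replicate 5 was the highest for the cell cycle list median (0.78), and replicate 2 was the lowest for the glycolysis and hypoxia list median (0.773). Among naive libraries, replicate 5 was the lowest for ribosome biogenesis (0.755), replicate 2 the lowest for the respiratory chain (0.712), replicate 4 the highest for class I antigen presentation (0.884) and replicate 3 the highest for metal handling and redox (0.716). For the marker sums, naive replicate 1 was the highest for T and NK cells (0.839, at 1.38 FPKM) and for leukocytes (0.737, at 84.1 FPKM), and naive replicate 2 for osteoblasts and stroma (0.841, at 26.0 FPKM).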

How the results depend on the processing

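The 3514 calls, 1671 higher and 1843 lower, moved by over 1.5 times without the length correction (5904, 2955 and 2949), without scaling and correction (5835, 3678 of them lower), with no filter on low values (5847, 2893 and 2954), with a fold threshold of 2 (1409, 660 and 749) and with a noise probability (2265, 984 of them lower). Leaving out each library in turn gave 3459 to 3610, 1641 to 1730 and 1802 to 1880. The replicate block gave 3522, 1674 and 1848 calls and changed no call of Fn1, Itga5, Lamb2 or Src, and the numbers do not pair the libraries.

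Fn1 did not pass with a pseudocount of 0.1 (-0.88), and ranged from -1.58 to -1.22 without single libraries. Itga5 passed without the length correction (-1.05) and as deposited (-1.27), and ranged from -0.60 to -0.11 without single libraries. Lamb2 did not pass with GC content (-0.11), a pseudocount of 0.1 (-0.13), a fold of 2 (-0.38) or the noise probability (-0.36), and ranged from -0.48 to -0.30. Src did not pass a fold of 2 (-0.79) or the noise probability (-0.78), and ranged from -0.86 to -0.71. Inhba reversed with the length of the longest transcript (0.54) or the coding median (0.26), and ranged from -1.36 to -1.25. With Naive-Mac replicates 2 and 5 only, Fn1 (-0.85), Lamb2 (-0.20), Inhba (-1.35) and Src (-0.79) did not pass, in a design whose smallest adjusted p was 0.0794.

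The immediate early median of -1.06 became -0.97 without the length correction, -1.82 after quantile normalization, -1.26 as deposited, -0.91 with GC content, -0.88 with no filter, -1.26 with the longest transcript and -0.73 with the coding median. It ranged from -1.13 to -1.03 without single libraries, each with 22 members lower. The difference of the changes, 2404 genes with 1192 above and 1212 below 0, was 4059, 1920 and 2139 without the length correction, 713, 313 and 400 with a fold of 2, and 1596, 792 and 804 over genes of certain length. Without single libraries it was 2222 to 2760, 1070 to 1396 and 1149 to 1364, with 17 to 18 immediate early members below 0.

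Reversed without the length correction were Bmpr1a (-0.16), Npm1 (0.88), Uqcrq (0.12), Bst2 (0.63), B2m (0.17), Mif (1.08), Slc7a11 (-0.18), Hspb1 (0.044) and Ftl1 (0.97), and as deposited Bmpr1a (-0.41), Nop58 (-0.21), Bst2 (0.34), Mif (0.79), Slc7a11 (-0.46) and Ftl1 (0.67). Reversed after quantile normalization were Sdc4 (-1.08), Cdk4 (-0.11), Rplp0 (-0.84), Cox6a1 (-0.74) and Krt7 (-0.28), and with the coding median Crk (-0.34), Bmpr1a (-0.63) and Nop58 (-0.71). The cause of these changes was not tested. The lengths, the restriction to genes of certain length and the pair of Naive-Mac libraries were alternatives chosen after seeing the data.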
